A study of Mus musculus with 4 samples.

Results

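Macrophages with high Lyz2 and detected Ms4a7 were examined among CD11b+ cells of the mouse brain after cerebrovascular injury (CVI). A cell was kept when it had at least 100 Lyz2 UMIs (unique molecular identifiers, 1 per counted transcript) per 10000, at least 1 Ms4a7 UMI and no Sall1 UMI. It also had under 50 UMIs per 10000 of S100a8 and S100a9, under 150 per 10000 of the MHC class II genes H2-Aa, H2-Ab1, H2-Eb1 and Cd74, and fewer than 3 of Mrc1, Cbr2, F13a1, Cd163 and Lyve1. These criteria kept 504 of 8018 cells. Among the kept cells, 55 came from the injured mouse labelled IL6 KO, 441 from the injured wild type, 2 from the sham mouse labelled IL6 KO and 6 from the wild-type sham mouse. Since the criteria chose the cells, their levels of the criteria genes and their differences from other cells are a description, with no test.

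Lyz2 encodes lysozyme 2, a bacteria-degrading enzyme of myeloid cells, and Ms4a7 a membrane protein found in macrophages of the brain's borders and in those derived from monocytes more than in microglia. Sall1 encodes a transcription factor that marks microglia. After brain injury, circulating monocytes can enter the tissue and become macrophages that take up debris and lipid. Such lipid-laden cells often express Gpnmb, a lysosomal glycoprotein, Fabp5, a fatty acid carrier, and Lgals3, a galactose-binding lectin recruited to damaged lysosomes.

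The study sequenced 4 single-cell libraries, each from 1 mouse of 8 to 12 weeks. The groups were IL6 KO (-/-) and IL6 WT (+/+) mice 6 days after CVI, which was made by ultrasound and injected microspheres under a thinned skull window, and IL6 KO (-/-) and IL6 WT (+/+) mice 6 days after sham surgery. Tissue was taken with a 4 mm punch, and CD11b+ cells were selected on beads, so the shares below are shares of selected cells. The severity of the injury (mild or severe) is not stated for these mice, and the controls are called sham operated in 1 label and uninjured in another.

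The injured KO-labelled library held 28560667 UMIs and 2638 cells past the quality filter, and the injured wild-type library 40336067 UMIs and 2996 cells. The sham libraries held 16218958 UMIs and 1392 cells with the KO label and 15222380 UMIs and 992 cells in the wild type. The kept cells had a median of 11990 and 16483 UMIs in the injured KO-labelled and wild-type libraries. The sham libraries shared 135 cell barcodes, and the other library pairs shared 2 to 14. One kept cell, of the injured wild type, had a shared barcode. Il6, the targeted gene, had 21.9 and 4.47 UMIs per 1000000 of all UMIs (CPM) over all cells of the injured KO-labelled and wild-type libraries and 26.4 and 10.5 CPM in the KO-labelled and wild-type sham libraries. Reads from the 3′ end do not test for a deletion elsewhere in the gene, so the genotype of the libraries is given as labelled. With 1 mouse in each group no test over mice exists. All intervals are exact 95% counting intervals that hold no difference between mice and are too narrow where few cells hold most UMIs of a gene.

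Kept cells were most frequent in the injured wild-type mouse. They made up 2.08% (1.57 to 2.71) of the injured KO-labelled library and 14.7% (13.5 to 16.04) of the injured wild-type library. In the sham libraries they made up 0.144% (0.0174 to 0.518) with the KO label and 0.605% (0.222 to 1.31) in the wild type. The KO-labelled share was 7.06-fold lower (5.33 to 9.52) than the wild-type share after injury. With the KO label the share was 14.5-fold higher (3.83 to 123) in the injured than in the sham library. In the wild type it was 24.3-fold higher (11.1 to 66.7). Both of these ratios depend on the border criterion, as described below. Between the sham libraries the ratio was 0.238 (0.0234 to 1.33), so a difference there was not detectable with 2 and 6 cells.

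**Figure D1:**
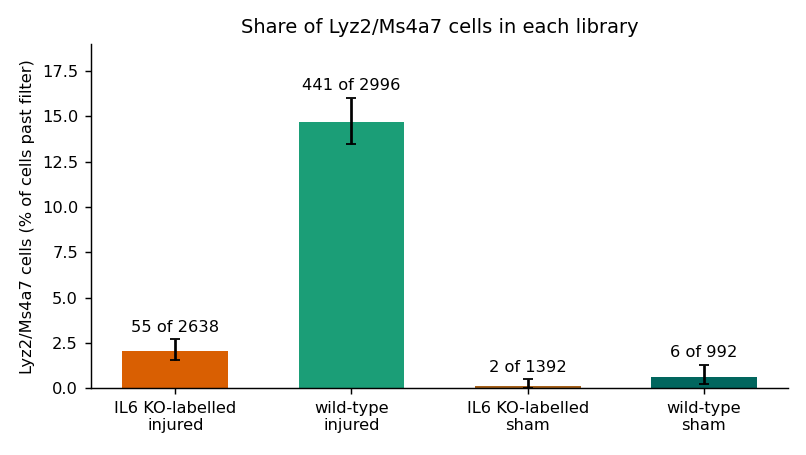
Share of Lyz2/Ms4a7 cells among cells past the quality filter in each library, in percent, with exact 95% binomial intervals and cell counts. The injured wild-type library stands at 14.7%, above 2.08% in the injured KO-labelled library and under 1% in both sham libraries.

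Other myeloid sets of the same libraries had other ratios, some of them also low with the KO label. Border-associated macrophages, the resident macrophages of the meninges and perivascular spaces, were defined here by at least 3 of the 5 border genes. They were 2.20% of the injured KO-labelled and 2.10% of the injured wild-type library, a ratio of 1.05 (0.719 to 1.52). Cells past the class II limit were 1.44% and 2.70%, a ratio of 0.533 (0.352 to 0.793). Neutrophils, the cells past the S100 limit, were 0.303% and 1.10%, a ratio of 0.275 (0.110 to 0.608). The same ratio for the kept cells was 0.142 (0.105 to 0.188). Between the sham libraries the ratios were 0.578 (0.399 to 0.835) for border-associated macrophages, 0.259 (0.0602 to 0.875) for class II high cells and 0.249 (0.0891 to 0.614) for neutrophils. Lower shares with the KO label were thus found in other sets and after sham surgery too. Whether these ratios differ beyond differences between mice was not tested.

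The Lyz2 criterion set most of the number of kept cells. At least 100 Lyz2 UMIs per 10000 were found in 99 and 601 cells of the injured KO-labelled and wild-type libraries and in 21 and 37 cells of the sham ones. Ms4a7 left 84 and 576 cells of the injured libraries, and the absence of Sall1 left 75 and 475. The class II limit left 68 and 460, and the border limit the final 55 and 441. In the wild-type sham library 30 cells passed Lyz2, Ms4a7, Sall1 and the S100 limit, 22 of them the class II limit and 6 the border limit. In the KO-labelled sham library the same steps left 15, 10 and 2 cells. The border limit thus took out most of the remaining sham cells but a smaller part of the injured ones. The injured over sham ratios of 14.5 and 24.3 depend on this limit, and no alternative left it out. Sall1 alone kept out 9 cells with the KO label and 98 of the wild type after injury. These 98 cells held 224 Sall1 UMIs in all. Near the Lyz2 limit, 8 and 22 kept cells of the injured libraries lay between 100 and 130 per 10000, and 6 and 39 cells that met every other criterion lay between 70 and 100. The closest values were 101.6 and 101.3 inside the limit and 95.9 and 99.9 outside it.

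Lyz2, although it set the choice of cells, was lower with the KO label. Per cell it had 101.6 at the lowest, 244 at the median and 915 UMIs per 10000 at the highest in the injured KO-labelled library, against 101.3, 394 and 1196 in the injured wild type. Over summed cells this was 30100.1 and 43379.6 CPM, a ratio of 0.694 (0.684 to 0.703). Its near-copy Lyz1, beside it on chromosome 10, held 10 and 190 UMIs in these cells. Ms4a7 was at 1016 CPM with the KO label and 1032 CPM in the wild type, a ratio of 0.984 (0.911 to 1.06). The sham cells had 12431 and 18571 CPM of Lyz2 and 1066 and 1470.1 CPM of Ms4a7.

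Of the 5 marker genes, Gpnmb, Fabp5 and Lgals3 were not used to choose the cells, and all were abundant after injury. Gpnmb (chromosome 6, 49036546 to 49070929, GRCm38) had 4076 CPM (3930 to 4225) in KO-labelled cells and 3908 CPM (3865 to 3952) in wild-type cells after injury. After thinning each cell to 5000 UMIs, Gpnmb was found in 76.0% of 50 cells with the KO label and 95.1% of 426 wild-type cells. Without thinning the shares were 72.7% and 96.1%. In endothelial cells, which should lack the gene, the thinned shares were 3.33% of 30 cells and 6.25% of 16 cells. None of the 2 KO-labelled and 6 wild-type sham cells had a Gpnmb UMI. With 5631 and 59178 UMIs in all, a count of 0 allows up to 533 and 50.7 CPM there.

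Fabp5 was at 2472 CPM (2359 to 2590) with the KO label and 5013 CPM (4964 to 5062) in the wild type after injury. Its highest KO-labelled cell reached 127 UMIs per 10000 with a median of 9.44, and the highest wild-type cell 192 with a median of 33.3. Lgals3 was at 1657 CPM (1565 to 1754) and 2119 CPM (2088 to 2152). Single cells of the 2 libraries overlapped for all of these markers, and some cells of each had none. The wild-type sham cells had 2 UMIs of Fabp5 and 26 of Lgals3, all of these 26 in 1 cell, and the KO-labelled sham cells had neither.

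**Figure D2:**
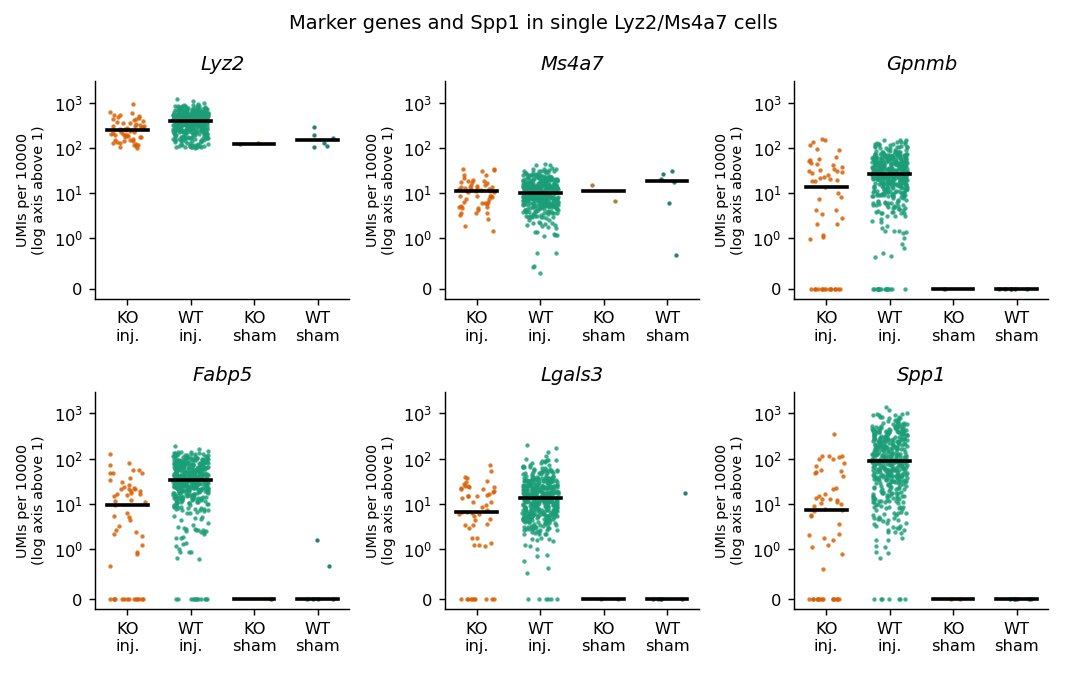
Levels of 5 markers and Spp1 in single Lyz2/Ms4a7 cells, in UMIs per 10000 of the cell on an axis that is logarithmic above 1, with the median of each library as a black line. Median Gpnmb is 13.6 in the injured KO-labelled and 26.2 in the injured wild-type library, and every sham cell is at 0.

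The sham cells had no Gpnmb and at most 2 Fabp5 UMIs, so the whole marker set of the injured cells was not found in them. With 2 and 6 cells this cannot show that it is absent after sham surgery. Of the injured KO-labelled cells, 27.3% had no Gpnmb UMI either. The results below are about the injured libraries. Mrc1, the mannose receptor of border-associated macrophages, was at 888 and 760 CPM in the KO-labelled and wild-type sham cells, against 19.3 and 6.42 CPM in the injured ones. Apoe, a lipid carrier, was abundant in the sham cells too, at 53454 and 62354 CPM. Monocyte genes came from single cells: the 15 Ccr2 and 16 Ly6c2 UMIs of the wild-type sham cells were in 1 cell each.

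Set against microglia, the resident macrophages of the brain, the kept cells carried more RNA of Gpnmb, Fabp5, Acp5 and other lysosomal, lipid and oxidase genes and less of microglia receptor genes. The microglia were the 1597 and 1331 cells of the injured KO-labelled and wild-type libraries with a Sall1 UMI and Lyz2 under 100 per 10000. A gene was called when its log2 ratio, with a prior of 10 CPM on both sides, was past 2-fold in both injured libraries. Of 5275 genes, 160 (3.03%) were called higher and 348 (6.6%) lower, and 219 and 253 under median-of-ratios scaling. The median of all these genes was -0.19 in each library.

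Among the genes furthest above microglia, Gpnmb had 4076 CPM in kept cells and 76.4 CPM in microglia of the injured KO-labelled library, which was 53.4-fold higher. In the wild type it had 3908 CPM in kept cells and 325 CPM in microglia, 12.0-fold higher. Acp5, a lysosomal acid phosphatase, had 264 and 214 CPM in KO-labelled and wild-type kept cells, against 3.83 and 6.93 CPM in microglia. Fabp5 was 16.9-fold and 7.39-fold higher, and Lgals3 18.6-fold and 7.06-fold higher, in the KO-labelled and wild-type pairs. Pla2g7, an enzyme that degrades platelet-activating factor, had 314 and 425 CPM in kept cells and 6.45 and 29.6 CPM in microglia. Cybb, the catalytic subunit of the phagocyte NADPH oxidase, had 531 and 360.0 CPM in kept cells and 31.9 and 42.9 CPM in microglia. The other genes of this group were Mgst1, Wfdc17, Msrb1 and Smpdl3a. All of them were further above microglia in the KO-labelled than in the wild-type library, where microglia held more of each transcript.

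Genes of microglia identity lay far below. Siglech, a sialic acid-binding receptor of microglia, had 22.1 and 10.5 CPM in KO-labelled and wild-type kept cells, against 614 and 378 CPM in microglia. P2ry12, the ADP receptor with which microglia sense damage, was 15.3-fold and 12.8-fold lower. Sparc, a matrix-associated glycoprotein, had 191 and 130.2 CPM in kept cells and 3458 and 2494 CPM in microglia. Cd81, a tetraspanin, had 264 and 162 CPM in kept cells and 3197 and 2244 CPM in microglia. Of 23 tested genes on the microglia list, 21 were called lower, with Sall1, a criterion, among them.

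By function, 9 of 15 tested genes on the list of monocyte-derived cells, 8 of 19 lipid genes, 8 of 21 matrix and vessel growth genes and 6 of 26 lysosomal genes were higher in kept cells than in microglia in both libraries. In the lower direction these lists had 0, 2, 2 and 3 genes. Inflammatory cytokines and chemokines went the other way, with 2 of 21 higher and 11 lower. Heat-shock and immediate early genes, which dissociation of tissue can induce, had 0 of 22 higher and 9 lower. For MHC class I and peptide loading, none of 14 genes was called in either direction.

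Against border-associated macrophages, the kept cells had more Gpnmb, Fabp5 and Lgals3 and less of several chemokine genes. Their 58 and 63 cells were set apart by the border genes of the criteria, so 16 of 17 border genes called lower in kept cells are a description of the choice. Of 3201 genes, 44 (1.37%) were called higher and 229 (7.15%) lower, and the median was -0.22 in both libraries. Median-of-ratios scaling gave 101 and 145. Gpnmb was 102-fold higher in the kept cells of the KO-labelled library, against border-associated cells with 40.1 CPM, and 4.29-fold higher in the wild type, against 911 CPM. Lgals3, Fabp5, Acp5, Msrb1 and Smpdl3a were again among the 10 genes furthest above. Psap, the precursor of the saposins that help degrade sphingolipids, had 5131 and 5817 CPM in kept cells and 1327 and 2391 CPM in border-associated cells. The chemokine Ccl7 had 70.5 and 99.9 CPM in kept cells, against 3456 and 3302 CPM. Ccl2, its monocyte-attracting relative, had 236 and 208 CPM in kept cells, against 2711 and 3235 CPM. Inflammatory cytokine and chemokine genes had 0 of 22 called higher and 14 lower.

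Class II high cells, 38 and 81 in the injured libraries, carried genes of monocytes and dendritic cells that the kept cells had little of. Of 2755 genes, 114 (4.14%) were called higher in kept cells and 142 (5.15%) lower (169 and 101 under median-of-ratios scaling), with medians of -0.10 and -0.20 in the KO-labelled and wild-type libraries. Ccr2, the receptor with which monocytes leave the marrow, had 9.67 and 15.0 CPM in kept cells and 406 and 389.5 CPM in class II high cells. Cd209a, a lectin of monocyte-derived dendritic cells, had 0 and 1 UMI in kept cells and 545 and 499 CPM in class II high cells. Above the class II high cells stood Gpnmb, at 107-fold and 71.6-fold, and Apoe, with 104386 and 117669 CPM in kept cells and 23738 and 15448 CPM in class II high cells. The cathepsin gene Ctsb had 8190 and 10709 CPM in kept cells, against 1577 and 1579 CPM. Igf1, a growth factor, had 225 and 375 CPM in kept cells, against 27.9 and 48.2 CPM. Lysosomal genes were called higher for 13 of 26 and lower for 1, lipid genes for 9 of 15 and 0, and reparative macrophage genes for 6 of 11 and 0. Monocyte-derived cell genes had 0 of 18 higher and 10 lower.

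**Figure D3:**
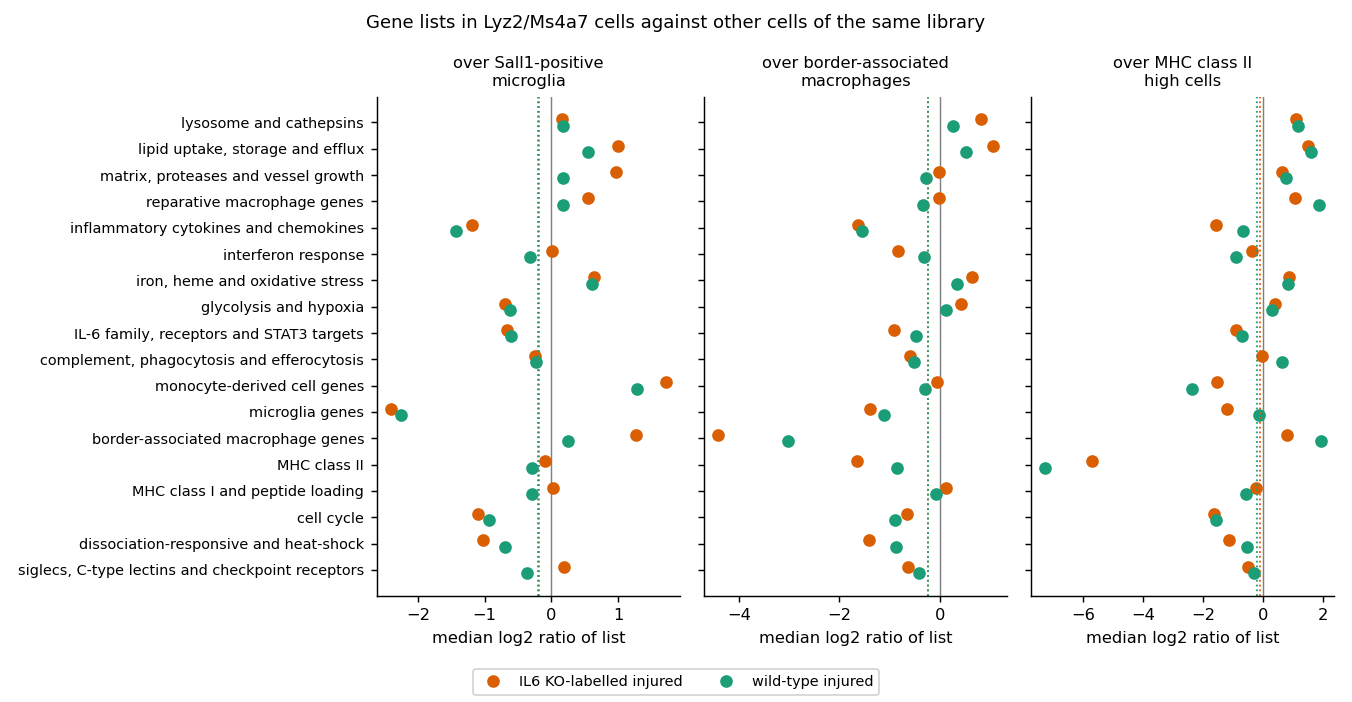
Median log2 ratio of each gene list in Lyz2/Ms4a7 cells over microglia, border-associated macrophages and class II high cells of the same injured library, with the KO-labelled library above the wild type and dotted lines at the median of all tested genes. Microglia genes are lowest against microglia (medians of -2.41 and -2.26), lysosomal genes are above 0 in every panel, and inflammatory genes below 0 in every panel.

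Between the injured libraries, kept cells with the KO label had less RNA of Spp1 and of lipid storage and uptake genes, and more of a few interferon-induced genes such as Irf7. Of 5150 genes, 46 (0.893%) were called higher, past 2-fold, with the KO label and 48 (0.932%) lower, so 48.9% of the called genes were higher. Median-of-ratios scaling gave 37 higher and 58 lower, which is 38.9% higher, and moved the median of all genes from 0.08 to -0.04. The KO-labelled side of each ratio rests on 55 cells and 723585 UMIs, the wild-type side on 441 cells and 7941154 UMIs.

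Spp1, the gene of osteopontin, a protein secreted into the matrix, was among the 12 genes lowest with the KO label. It had 3854 CPM in the KO-labelled and 19027 CPM in the wild-type kept cells, 4.94-fold lower (4.75 to 5.13) with the KO label. Per cell the median was 7.32 UMIs per 10000 with the KO label and 86.6 in the wild type, and the highest cells had 348 and 1347. One cell held 29.0% of the KO-labelled Spp1 UMIs, and without the highest cell of each library the log2 ratio was -2.76 in place of -2.30. When cells with a Sall1 UMI were not kept out, which added 9 KO-labelled and 98 wild-type cells, it was -0.95 and Spp1 was no longer past 2-fold. Thinned to 5000 UMIs, 76.0% of KO-labelled and 97.2% of wild-type kept cells had Spp1. Endothelial cells held it in 10.0% and 62.5% of cells at the same depth, with 24.6 and 212 CPM, so its level in cells that should have little differed between the libraries too. The lower Spp1 with the KO label was found in other cells too. It was 12.9-fold lower in microglia (754 and 9701 CPM), 24.6-fold lower in border-associated macrophages (418 and 10279 CPM) and 1.93-fold lower in class II high cells (1201 and 2323 CPM).

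Lipid handling was the list with the most genes called in 1 direction, 0 higher and 7 of 20 lower with the KO label. Over all genes 0.932% were lower, and the list had a median log2 ratio of -0.33. Fabp5 was 2.03-fold lower (1.93 to 2.13), just past 2-fold, and its log2 ratio of -1.02 was -0.99 with the Sall1 cells and -0.74 at a Lyz2 minimum of 200 per 10000. Plin2, which coats lipid droplets, had 398 CPM with the KO label and 980.5 CPM in the wild type, 2.46-fold lower (2.19 to 2.78). Hilpda, a lipid droplet protein that restrains lipolysis, had 51.1 and 194 CPM, 3.80-fold lower (2.75 to 5.42). Cd36, a scavenger receptor for fatty acids and oxidised lipoproteins, had 3 UMIs with the KO label, all in 1 cell, and 548 UMIs in the wild type, a ratio of 0.0601 (0.0124 to 0.177). The apolipoprotein genes Apoc1 (40.1 and 114 CPM) and Apoc2 (296 and 718 CPM) and the phospholipid transfer gene Pltp (99.5 and 241 CPM) were the others called lower.

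Other lipid genes were close between the libraries. Apoe had 104386 CPM with the KO label and 117669 CPM in the wild type, a ratio of 0.887 (0.881 to 0.894). Trem2, a lipid-sensing receptor of microglia and macrophages, had a ratio of 1.07 (1.02 to 1.12), and the lipase gene Lpl one of 0.963 (0.785 to 1.17). Abca1, which exports cholesterol, had a ratio of 0.766 (0.673 to 0.870). Cd36 was near the same level in border-associated macrophages of both injured libraries (244 and 216 CPM), whereas Plin2 was lower there too with the KO label (185 and 713 CPM). Acot1, which splits long-chain acyl-CoA and is on no list, had 3 and 479 UMIs, a ratio of 0.0687 (0.0141 to 0.202).

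Reparative macrophage genes had 0 higher and 6 of 16 lower (0.932% over all genes), with a median of -0.64. Spp1, given above, was among the 6. At a minimum of 100 CPM, 3 of 11 were lower with a median of -0.11. At a Lyz2 minimum of 200 per 10000, 4 of 14 were lower with a median of -0.33. Arg1, the arginine-degrading enzyme, had 1 UMI with the KO label and 236 UMIs in the wild type, a ratio of 0.0465 (0.00117 to 0.262). It was sparse in the wild type too, in 2.58% of cells after thinning, and 1 cell held 20.3% of its wild-type UMIs. Gdf15, a stress-induced cytokine, had 49.8 and 207 CPM, 4.15-fold lower (2.99 to 5.95). Chil3, a chitinase-like protein, had 16.6 and 48.1 CPM, and Gdf3, a TGF-beta family ligand, had 1 and 208 UMIs. Cd5l, a secreted macrophage protein, had 78.8 and 183 CPM, with 68.4% of its KO-labelled UMIs in 1 cell. Axl, a receptor for apoptotic cells, had 191 and 109 CPM and the heme-degrading Hmox1 368 and 238 CPM, and neither was past 2-fold.

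Matrix, protease and vessel growth genes had 0 higher and 2 of 21 lower (0.932% over all genes). These were Spp1 and the fibronectin gene Fn1, which had 4 and 291 UMIs. The median log2 ratio of the list was -0.24. Igf1 had 225 CPM with the KO label and 375 CPM in the wild type, and Vegfa, a growth factor of vessels, 27.6 and 37.8 CPM. Pdgfb, another vessel growth factor, had 31.8 and 15.7 CPM and Tgfbi, a matrix protein, 202 and 141 CPM. None of these 4 was past 2-fold with the prior. Mmp8, a collagenase, had 1 and 284 UMIs.

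Among complement and clearance genes, 2 of 25 were lower (0.932% over all genes) and none higher. Mfge8, a bridge between dying cells and phagocytes, had 15.2 CPM with the KO label and 84.9 CPM in the wild type, 5.58-fold lower (3.10 to 11.2). Cfp, the complement stabiliser properdin, had 22.1 and 86.3 CPM, but its log2 ratio of -1.58 was -0.22 with each cell weighted equally, which gave 1 gene of the list higher and 1 lower. The complement gene C1qa, by contrast, had 4692 and 4661 CPM, a ratio of 1.01 (0.972 to 1.04). Pros1, which encodes protein S, had 34.6 and 18.1 CPM and was not past 2-fold.

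Some genes of border-associated macrophages were lower with the KO label in the kept cells. Pf4, a platelet-type chemokine, had 41.5 and 233 CPM in kept cells, 5.61-fold lower (3.92 to 8.34). With each cell weighted equally its log2 ratio was 0.24 in place of -2.24, so the direction for Pf4 depends on how cells are weighted. In border-associated cells themselves Pf4 had 2194 and 1869 CPM. Cd38, an NAD-consuming surface enzyme, had 24.9 and 121 CPM, and the folate receptor gene Folr2 12.4 and 46.6 CPM. F13a1, a criterion gene, had 67.7 and 167 CPM. With these, 4 of 9 tested border genes were lower (0.932% over all genes) and none higher, with a median of -0.80. The criteria limited F13a1 in the kept cells, so its part in this count is a description. With each cell weighted equally, 1 of 12 was lower and 2 higher, with a median of -0.09.

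Cela1 (6.91 and 58.9 CPM), Rasgrp2 (1 and 255 UMIs) and Gal complete the 12 genes that were lowest with the KO label. Gal, which encodes the neuropeptide galanin, had no UMI with the KO label and 247 UMIs (31.1 CPM) in the wild type. By the exact interval used for the other ratios it was at least 6.06-fold lower, and 7.50-fold lower with the floor of 3 UMIs in place of 0. S100a4, a calcium-binding protein of monocyte-derived cells, likewise had 0 and 159 UMIs. It was at least 3.88-fold lower by the exact interval, and 4.83-fold lower with that floor. Some named genes passed the filter only through the wild type. With the KO label, Gal, S100a4, Mmp8, Rasgrp2, Arg1, Gdf3, Cd36, Acot1, Fn1 and Cela1 had at most 5 UMIs, under 20 CPM. Such a gene can only be called lower, so these calls are a description. In the other direction, genes such as Ccl24, Cxcl9, Ccl5 and Clec4a1 passed only through the KO label. On the list of monocyte-derived cells, 5 of 21 genes were lower (0.932% over all genes), Fn1, S100a4, S100a6, Emb and Chil3. One, Ms4a4c, was higher, with 67.7 and 23.3 CPM.

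Genes called higher with the KO label included few abundant ones. The list of inflammatory cytokines and chemokines had 4 of 22 higher (0.893% over all genes) and 1 lower, with a median of 0.07. The balance turned round without the highest cell of each gene, at 1 of 20 higher and 3 lower, and in cells with at least 10 Gpnmb UMIs per 10000, at 1 of 19 higher and 6 lower. Leaving out the highest cell takes a larger share of the fewer KO-labelled cells, which tends to lower the ratio. Ccl24 and Cxcl9, the genes with the highest ratios, had 205 and 139.6 CPM with the KO label and 1.39 and 2.52 CPM in the wild type. For each gene 1 cell held 98.0% of the KO-labelled UMIs, and without that cell Ccl24 had 4.15 and 0.378 CPM. Ccl5, a chemokine for T cells and monocytes, had 59.4 and 6.93 CPM, a ratio of 8.58 (5.62 to 13.0), and Ccl12 73.2 and 31.2 CPM. The cytokine genes Il1b (880.3 and 546 CPM), Il1a (155 and 85.5 CPM) and Tnf (44.2 and 64.7 CPM) were not past 2-fold, and nor was the neutrophil chemokine Cxcl2 (268 and 425 CPM).

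Interferon response genes had 3 of 22 higher (0.893% over all genes) and none lower, with a median of 0.41 against 0.08 for all genes. This count was 10 of 24 when cells with a Sall1 UMI were not kept out (median 0.72) and 1 of 21 in cells with at least 10 Gpnmb UMIs per 10000 (median 0.31). Irf7, a transcription factor that amplifies type I interferon, had 184 CPM with the KO label and 57.2 CPM in the wild type, a ratio of 3.22 (2.63 to 3.91). Ifitm3, which blocks virus entry, had a ratio of 2.33 (2.08 to 2.60). Gbp2, a GTPase, had 23.5 and 6.67 CPM, with 52.9% of its KO-labelled UMIs in 1 cell. The antiviral gene Rsad2 had 24.9 and 52.4 CPM, a log2 ratio of -0.84 that was 1.23 with the Sall1 cells, so its direction depends on that criterion. In MHC class I and peptide loading, 2 of 14 genes were higher (0.893% over all genes), H2-Q6 and H2-Q7. The 2 are near-copies of each other, so reads could be split between them. B2m, the light chain of class I, had 3871 and 2574 CPM and was not past 2-fold.

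The class II genes were capped by the criteria, so their levels are a description of cells below the cap, and in cells with at least 10 Gpnmb UMIs per 10000 none of 7 class II genes was past 2-fold. H2-Aa had 152 and 28.1 CPM, H2-Ab1 129.9 and 26.4 CPM, H2-Eb1 88.4 and 16.5 CPM, and the invariant chain gene Cd74 339 and 104 CPM. Of 17 lectin and checkpoint genes, 2 were called higher (0.893% over all genes). These were the lectin receptor genes Clec4a1 (49.8 and 5.67 CPM) and Clec4a2 (58.0 and 12.5 CPM). Of genes on no list, Cd72, a coreceptor known from B cells, had 123 and 20.3 CPM, a ratio of 6.07 (4.63 to 7.91). Tmem176a, a membrane protein of antigen-presenting cells, had 309.6 and 83.5 CPM, a ratio of 3.71 (3.17 to 4.32). Rrad (120.2 and 22.7 CPM) and Stap1 (87.1 and 17.0 CPM) were the others. Ttr, the carrier protein of the choroid plexus, had 586 and 115 CPM, of which 1 cell held 82.8% and 90.2%.

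Several lists had no gene past 2-fold, which is near the 0.893% called higher and 0.932% called lower over all 5150 genes. None of 26 lysosomal genes was called, with a median of -0.01. Ctsd had 17731 and 16567 CPM, a ratio of 1.07 (1.05 to 1.09), Ctsb a ratio of 0.765 (0.745 to 0.785), and Cst3, a cathepsin inhibitor, a ratio of 1.77 (1.71 to 1.83). Also without a call were the 19 iron and oxidative stress genes (median 0.04), the 15 glycolysis genes (-0.06), the 23 dissociation and heat-shock genes (0.09) and the 20 microglia genes (0.42). The median of the microglia genes lay above the 0.08 of all genes, as did that of the interferon genes (0.41). The iron-storage genes Fth1 and Ftl1 had ratios of 1.11 (1.09 to 1.13) and 0.876 (0.861 to 0.891).

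Of 24 genes on the IL-6 pathway list, 13 were tested in the kept cells and none was called in either direction, with a median of 0.12. Over all 5150 genes 0.893% were called higher and 0.932% lower, so no call among 13 genes is near that share. Il6, Lif, Lifr, Osmr, Il11, Jak2, Tyk2 and Socs1 were among the genes not tested. Il6ra, the ligand-binding receptor chain, had 59.4 CPM with the KO label and 59.1 CPM in the wild type, a ratio of 1.01 (0.718 to 1.38). The signalling chain gene Il6st had 20.7 and 16.1 CPM, Stat3, which carries the signal to the nucleus, 69.1 and 61.7 CPM, and the feedback inhibitor Socs3 113 and 105 CPM. Il6 had 3 UMIs with the KO label and 11 in the wild type, a ratio of 2.99 (0.536 to 11.3), so a difference in Il6 was not detectable in these cells at this depth.

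**Figure D4:**
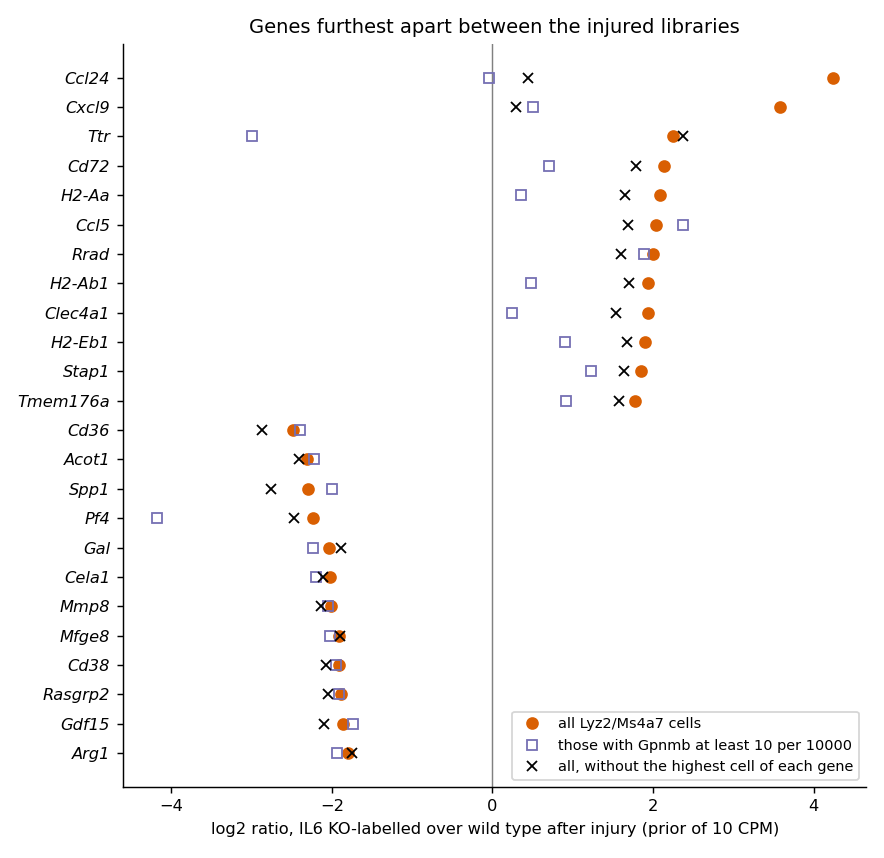
Log2 ratio of the KO-labelled over the wild-type injured library (prior of 10 CPM) for the 12 highest and 12 lowest called genes in Lyz2/Ms4a7 cells, in all cells, in those with at least 10 Gpnmb UMIs per 10000, and without the highest cell of each gene. All 12 lower genes are past 2-fold in every version, and 10 of the 12 higher ones without their highest cell but 3 in the cells with Gpnmb. The genes were chosen as extreme in all cells, and the other versions use part of these cells, so the counts are a description. Leaving out the highest cell takes a larger share of the 55 KO-labelled than of the 441 wild-type cells, which tends to lower the ratio. The median of all tested genes was 0.08 in all cells and -0.04 without the highest cells.

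Gpnmb, which the criteria did not use, was at 0 or low in more of the cells with the KO label. No Gpnmb UMI was found in 15 of 55 KO-labelled cells (27.3%, 16.1 to 41.0) and in 17 of 441 wild-type cells (3.85%, 2.26 to 6.10). Below 10 UMIs per 10000 lay 26 KO-labelled cells (47.3%, 33.7 to 61.2) and 92 wild-type cells (20.9%, 17.2 to 25.0). The cells below this level were shallower, with medians of 8600.5 and 12622 UMIs, against 14838 and 17649 UMIs for those above it. At 80 and over the libraries had 10.9% and 7.48% of their cells. The limit of 10 was set after seeing these values, and 7 and 125 cells lay between 5 and 20.

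**Figure D5:**
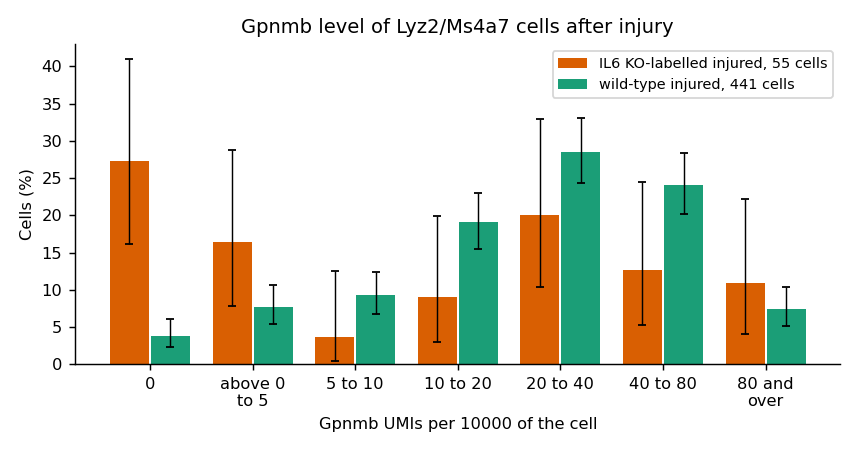
Share of Lyz2/Ms4a7 cells of each injured library by Gpnmb level, in UMIs per 10000 of the cell, with exact 95% binomial intervals. Cells at 0 are 27.3% with the KO label and 3.85% in the wild type.

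Cells low and high in Gpnmb differed alike in both libraries in several genes. Fabp5, Tmem176b and Cx3cr1 were among the genes that rose or fell most with Gpnmb across these same wild-type cells. Their differences in a split on Gpnmb are therefore a description. Fabp5 had 509 and 1522 CPM in the Gpnmb-low cells of the KO-labelled and wild-type libraries, against 3458 and 5660 CPM in the Gpnmb-high ones. The other direction was seen for Tmem176b, a relative of Tmem176a, with 1026 and 398 CPM in low cells and 156 and 78.7 CPM in high cells. Cx3cr1, the fractalkine receptor of microglia and tissue macrophages, had 625 and 489 CPM in low cells and 315 and 205 CPM in high cells. Cd74 had 807 and 390.4 CPM in low cells and 104 and 51.4 CPM in high cells, and Il1b 2097 and 897 CPM in low cells and 270 and 481 CPM in high cells. Ms4a7 varied less, with 1270 and 1131 CPM in low cells and 888 and 1014 CPM in high cells.

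Because the 2 libraries differ in their share of Gpnmb-low cells, the genotype comparison was repeated over the 29 KO-labelled and 349 wild-type cells with at least 10 Gpnmb UMIs per 10000. Here 32 genes were called higher and 57 lower, of which 15 and 38 were called in all kept cells. Spp1 had 5025 CPM with the KO label and 20048 CPM in the wild type, 3.99-fold lower. Plin2 was 2.13-fold, Pltp 2.10-fold and Hilpda 3.70-fold lower, and Fabp5 was 1.64-fold lower. Pf4 had 4.15 CPM with the KO label and 247 CPM in the wild type. Irf7 had a ratio of 2.79 (2.13 to 3.60) and Rrad one of 4.92 (3.51 to 6.79). For H2-Aa the ratio was 1.48 (0.687 to 2.84), and Ttr turned to a log2 ratio of -3.00. Of the 12 highest called genes, 10 had more CPM in Gpnmb-low than in Gpnmb-high cells of the KO-labelled library, and 7 in the wild type. These genes were chosen as high with the KO label, where 47.3% of cells were Gpnmb-low against 20.9% in the wild type. That choice itself favours genes of Gpnmb-low cells. The share over all genes is not given here, so the counts are a description.

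Across cells thinned to 5000 UMIs, the genes most like Gpnmb in the wild type were Fabp5, Psap, Ftl1, Fth1 and Ctsb. Among 1463 genes found in at least 30% of 426 wild-type cells, their Pearson correlations with Gpnmb were 0.69, 0.58, 0.47, 0.44 and 0.44 on log counts. In 50 KO-labelled cells the same genes had 0.84, 0.68, 0.47, 0.22 and 0.65. Spp1 had 0.65 in the KO-labelled and 0.31 in the wild-type cells, and Lgals3 0.67 and 0.42. Farthest in the other direction was Tmem176b, at -0.83 and -0.49. All points of 1 correlation come from 1 library and 1 mouse, so these values describe that library.

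Markers of other cells were checked in the kept cells of the injured libraries. The 11 microglia markers summed to 4689 CPM with the KO label and 3762 CPM in the wild type, against 17697 and 14395 CPM in microglia, and Sall1 was at 0 by choice. At 5000 UMIs, at least 5 of the 10 markers other than Sall1 were found in 54.0% of KO-labelled kept cells (39.3 to 68.2) and 31.7% of wild-type ones (27.3 to 36.3). Microglia had 99.3% and 98.5%, border-associated macrophages 58.1% and 46.5%, and none of 30 and 16 endothelial cells did. The difference in microglia markers between the injured libraries moves with the genes given above for each genotype label, and its part in them was not tested.

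The 7 monocyte markers summed to 33.2 and 80.2 CPM, with Plac8 and Vcan among those at 0 with the KO label. Of the thinned cells, 0 of 50 (0 to 7.11%) and 5 of 426 (1.17%, 0.382 to 2.72) had at least 2 of them. The 10 border markers summed to 308 and 722 CPM, the 8 neutrophil markers to 113 and 131 CPM, and the 11 markers of neurons and glia to 106 and 85.1 CPM. Endothelial markers summed to 38.7 and 27.3 CPM, dendritic cell markers to 11.1 and 5.79 CPM, and lymphocyte markers to 0 and 0.378 CPM. Fibroblast and mural markers summed to 4.15 and 51.8 CPM, and 97.8% of the 179 wild-type Col1a1 UMIs were in 1 cell. At least 3 of 11 G2/M genes, which cells express before division, were found in 0 of 50 KO-labelled and 9 of 426 wild-type kept cells (2.11%, 0.970 to 3.97).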

How the data were processed

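CD11b+ cells of 4 mouse brains were measured with 10x 3′ v3 chemistry. The authors deposited matrices of whole UMI counts, 1 per gene and barcode, and the submitters' processing notes name Cell Ranger 6.0.1 and mm10. Their gene annotation is not stated in the sources used here. Of 32285 gene IDs, 32158 (99.6%) were in GENCODE vM21, which gave the positions.

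A barcode was used when it reached 500 genes and 1000 UMIs and had no more than 10% mitochondrial UMIs. Doublets were left in and removed only as an alternative, by the highest Scrublet scores at 0.8% per 1000 barcodes. Counts were summed over cells of a set and library and given as CPM of that sum. Intervals are exact Poisson (CPM), Clopper-Pearson (shares) or conditional binomial (ratios) at 95%, and cover counting error only, as does the floor of 3 counts. Log2 ratios carry a prior of 10 CPM, which makes the ratio of a low gene smaller. A gene was called past 2-fold when it had at least 20 CPM in 1 library and at least 50 UMIs over both. The KO-labelled kept cells hold fewer UMIs, so a gene found only there needed a higher CPM to reach 50 UMIs. For shares with a UMI and correlations, cells were thinned to 5000 UMIs, which left out 5 and 15 kept cells of the injured KO-labelled and wild-type libraries. Other cell sets were made by the same criteria, each cell falling in the first set it met: neutrophils, border-associated, class II high, kept cells, microglia. Endothelial cells had at least 4 of 7 endothelial markers.

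The members, the 18 gene lists (397 genes) and the comparisons were chosen with earlier results of these data known. Clec7a was not among the symbols and Aldoa was shared by 2 IDs, so both were left out. Named genes are the 12 highest and 12 lowest called, the criteria genes and markers, the highest and lowest 2 of each list, and, against other sets, the 10 furthest apart in both libraries (those above with at least 200 CPM). Other genes in the text were picked for their role after their values were seen. Python 3.11.15, numpy 2.4.6, scipy 1.17.1, pandas 2.3.3, scanpy 1.11.5 and matplotlib 3.10.9 were used, and the ratio calculation was tested on simulated counts.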

Additional observations from a re-analysis of the deposited data

How the results depend on the processing

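No paired analysis was possible because each group is 1 library of 1 mouse with no shared replicate number. The alternatives were another Lyz2 minimum, no Sall1 or class II criterion, a stricter quality filter, thinning to 3000 UMIs, doublets left out, myeloid cells as denominator, other scaling, weighting, priors and filters. Leaving out shared barcodes, the highest cell of each gene, or cells low in Gpnmb was added after seeing the data. The KO-labelled over wild-type share ratio after injury was 0.101 at a Lyz2 minimum of 200 per 10000. The wild-type ratio of injury over sham was then 126, but it rests on 1 sham cell of 992 (0.101%, 0.00255 to 0.560). The ratio between sham libraries was 0 at that minimum and with the stricter quality filter, which left no KO-labelled sham cell, so no injury ratio could be given for that label. Between the injured libraries, 79 genes were called higher and 49 lower with cells weighted equally, and 26 and 68 without the highest cell of each gene. Thinning to 3000 UMIs left 3175 genes tested, with 59 higher and 112 lower. Of the 46 higher and 48 lower genes called in the main setting, 19 and 27 were called again after this thinning. At a Lyz2 minimum of 200 per 10000, 27 and 40 of them were. A prior of 1 CPM gave 135 higher and 86 lower, and a minimum of 100 CPM gave 13 and 15. The share of called genes that were higher ran between 27.7% without the highest cells and 61.7% with cells weighted equally. Over border-associated macrophages, 101 genes were higher and 145 lower under median-of-ratios scaling, and 83 were higher with cells weighted equally. Pf4 reversed to a log2 ratio of 0.24 with cells weighted equally and Ttr to -3.00 in cells with Gpnmb, and the cause was not tested. These 2 are the reversals among ratios past 2-fold. Of ratios short of 2-fold, Rsad2 (1.23 without the Sall1 criterion), Cebpd, Cst7, Gpnmb, Hmgb2, Il4ra, Ms4a7, Osm, Pcna and Srxn1 changed sign under at least 1 alternative. Spp1 (-0.95) and the near-copies H2-Q6 (0.90) and H2-Q7 (0.88) were short of 2-fold without the Sall1 criterion, Cfp (-0.22) with cells weighted equally, and Ms4a4c (0.99) without its highest cell. In cells with Gpnmb this held for Cd72 (0.70), Clec4a2 (0.63), H2-Aa (0.36), H2-Ab1 (0.48), H2-Eb1 (0.91), Ifitm3 (0.78), Tmem176a (0.91) and Fabp5 (-0.71). Over these alternatives, 684 log2 ratios of genes in the text or lists stayed within the counting interval of the reported value, 212 moved outside it and 2 reversed as above. Precision is limited by the 55 KO-labelled cells and by the 2 and 6 sham cells.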
